A study of Mus musculus with 2 samples.

Results

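The genes described here write, copy and remove DNA methylation: *Dnmt1*, *Uhrf1*, *Uhrf2*, *Dnmt3a*, *Dnmt3b*, *Tet1*, *Tet2*, *Tet3* and *Tdg*. They were taken by symbol, and all 9 were found among the 18159 gene symbols of the expression table. The tissue was the muscle wall (tunica muscularis) of the jejunum of C57BL/6 mice aged 15 days, with 1 mRNA library for *Dnmt1*-WT and 1 for *Dnmt1*-KO. According to the study, *Dnmt1*-WT mice carry the smMHCCre-eGFP/+ transgene, in which a *Myh11* promoter drives Cre recombinase and eGFP. *Dnmt1*-KO mice carry the same transgene with a floxed *Dnmt1* allele on both chromosomes. The labels give the *Myh11*-cre transgenic strain with Dnmt1lox/lox for both samples, and the free-text description of both names the knockout, so the genotype was read from the genotype field and the title. Cre is driven in smooth muscle cells, while the RNA is that of the whole muscle wall, whose other cells are not targeted by the design. Recombination by cell type was not analysed here. RNA of mice of both sexes was used for each genotype, and how it was combined is not stated.

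Methylation of cytosine in CpG is copied after DNA replication by DNMT1, which UHRF1 brings to sites methylated on the parental strand only. DNMT3A and DNMT3B place methyl groups on sites without a template. TET enzymes oxidise methylcytosine, and TDG cuts out the most oxidised products, after which base excision repair restores an unmethylated cytosine. DNMT1 and UHRF1 are made mainly by dividing cells, whereas DNMT3A and the TET enzymes are also made by cells that no longer divide.

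Cre removes exons 4 and 5 of *Dnmt1*, by the study's description of the allele. In the GENCODE M21 annotation of GRCm38, *Dnmt1* lies on the minus strand at chr9:20907209-20959888, and the coding transcript Dnmt1-201 has 39 exons and 5367 bases. Exons 4 and 5 of that transcript, in the annotation's own numbering, which was taken to be that of the study, are 290 coding bases together, which is 5.40% of its length. Division of 290 by 3 leaves 2, so their loss shifts the reading frame. Exon 5 is shown because it lies wholly within the coding sequence and within the part that Cre removes. It spans chr9:20940476-20940554 and reads, on the strand of the gene:

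Dnmt1 exon 5: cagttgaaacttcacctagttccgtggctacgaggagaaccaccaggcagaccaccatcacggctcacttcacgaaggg

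The remaining 94.6% of the transcript can still give reads after recombination. A value for the whole gene therefore does not measure the deletion itself, and values per exon were not analysed here.

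**Figure D1:**
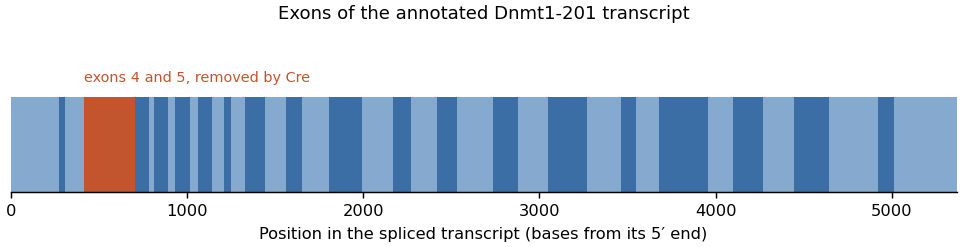
Exons of the annotated Dnmt1-201 transcript drawn to scale along the spliced RNA, in bases from its 5′ end, with neighbouring exons in alternating blue and exons 4 and 5 in red. The exons removed by Cre cover 290 of 5367 bases near the 5′ end.

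The deposited values are FPKM, fragments per kilobase of transcript scaled to the mapped fragments of the library, so that levels of different genes can be set side by side. Fragment counts per gene are unknown, and 0.03 FPKM was the lowest value above 0 in either library. With 1 library per genotype there was no spread between replicates, no test was made, and every difference given here lacks a replicate check. Differences are given as the plain ratio of *Dnmt1*-KO to *Dnmt1*-WT FPKM, and a gene was called higher at a ratio of 1.5 or more and lower at 0.667 or less. All 10 smooth muscle genes checked were present in both libraries, led by *Acta2*, the smooth muscle actin, with 5408.13 FPKM in *Dnmt1*-WT against 4016.24 FPKM in *Dnmt1*-KO.

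The targeted gene, *Dnmt1*, had 11.58 FPKM in *Dnmt1*-WT against 7.58 FPKM in *Dnmt1*-KO, a ratio of 0.655. *Tet1* had the lowest ratio of the 9 genes, 0.427, and *Tet2*, *Tet3* and *Uhrf2* had ratios from 0.638 to 0.676, close to that of *Dnmt1* itself, with *Tet2* just within the limit. *Uhrf1* was higher, with a ratio of 1.60, and *Tdg* was nearly level at 1.16. *Dnmt3a* was the most abundant member in *Dnmt1*-WT and *Dnmt3b* the least abundant in either library. In bulk tissue, fewer cells of a type and less RNA per cell cannot be told apart.

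Of the 9 genes, 8 had a mean of at least 1 FPKM over both libraries and were counted, and *Dnmt3b* was below this. Of the 8, 4 were lower past 1.5-fold (*Dnmt1*, *Uhrf2*, *Tet1* and *Tet3*), 1 was higher (*Uhrf1*) and 3 lay within the limits (*Dnmt3a*, *Tet2* and *Tdg*). Over all 13450 genes with a mean of at least 1 FPKM, 11.1% were lower and 15.3% higher by the same rule. Among the 9589 genes with a mean from 2 to 30 FPKM, the range that holds all 8 counted members, these shares were 10.9% and 13.4%. At a ratio of 0.5 or less only *Tet1* was called, against 3.49% of all genes, and at a ratio of 2 or more none of the 8 was, against 8.25%. The median log2 ratio of the 8 members, with 0.1 added to each FPKM, was -0.57, and that of all genes was -0.02. When the libraries were divided by their FPKM sums, 5 members were lower and 0 higher past 1.5-fold, against 15.4% and 13.0% of all genes, and the share of all calls that were higher went from 58.1% to 45.8%. With the upper quartiles set equal, 2 members were lower and 1 higher, against 10.1% and 16.2% of all genes, and median centring or a trimmed mean gave 3 lower and 1 higher.

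**Figure D2:**
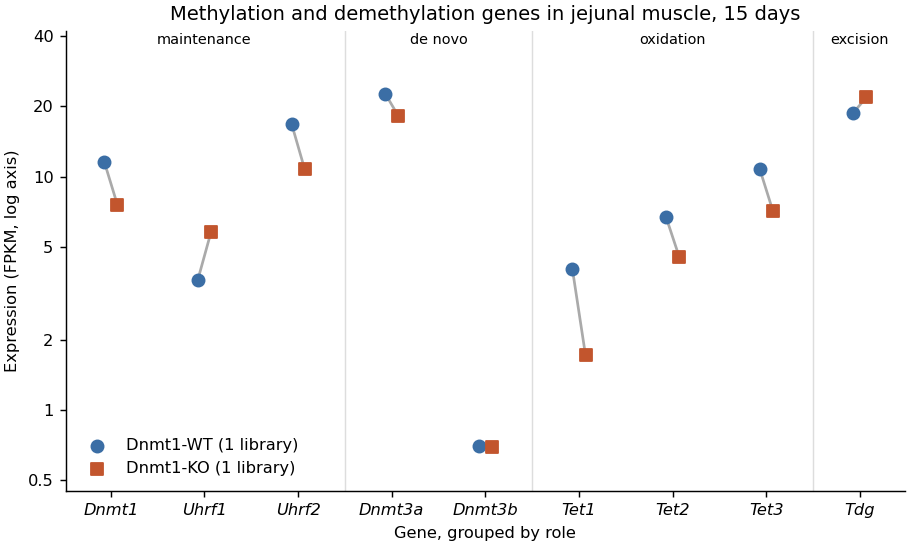
FPKM (log axis) of the 9 genes in the *Dnmt1*-WT library (blue circles) and the *Dnmt1*-KO library (red squares), 1 library each, without error bars because there are no replicates. The *Dnmt1*-KO point lies above the *Dnmt1*-WT point for *Uhrf1* (ratio 1.60) and *Tdg* (1.16), at about the same level for *Dnmt3b*, and below it for the other 6 genes, of which *Dnmt3a* and *Tet2* are within the limits for a call.

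Maintenance of methylation rests on *Dnmt1* and *Uhrf1*, and these transcripts differed in opposite directions. *Dnmt1* stood above 64.7% of the genes detected in the *Dnmt1*-WT library and above 55.0% of those in the *Dnmt1*-KO library. Its ratio of 0.655 was undercut by 10.2% of the genes counted. *Uhrf1*, which encodes the reader of CpG sites methylated on a single strand, was at 3.62 FPKM in *Dnmt1*-WT and 5.78 FPKM in *Dnmt1*-KO. Its ratio of 1.60 exceeded that of 86.8% of the genes counted. Within a library, where scaling plays no role, the level of *Dnmt1* was 3.20 times that of *Uhrf1* in *Dnmt1*-WT and 1.31 times in *Dnmt1*-KO.

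*Uhrf2* encodes a protein of the same domain structure as UHRF1 whose part in maintenance is less settled. It was at 16.87 FPKM in *Dnmt1*-WT and 10.77 FPKM in *Dnmt1*-KO, a ratio of 0.638 that 9.06% of the genes counted undercut. It was the more abundant gene of the pair in both libraries, but its excess over *Uhrf1* was 4.66-fold in *Dnmt1*-WT and 1.86-fold in *Dnmt1*-KO. *Uhrf1* thus made up 17.7% of the summed UHRF transcripts in *Dnmt1*-WT and 34.9% in *Dnmt1*-KO.

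The position of each gene was read from the same annotation. *Uhrf1* lies on the plus strand at chr17:56303321-56323486 and *Uhrf2* on the plus strand at chr19:30030513-30093722. *Uhrf1* has a processed pseudogene, *Gm5648*, whose transcript matches it at 98.3% identity over 1590 bases and which is not listed in the table. How reads shared with such a copy were assigned is not stated, so the level of *Uhrf1* is uncertain to that extent.

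Windows of 250 bases before each RefSeq transcription start (GRCm38.p6) were found for all 9 genes, 14 windows in all. They were searched on both strands for the E2F motif, a sequence recognised by the factors that turn on genes for DNA replication, in its spellings TTTCCCGC, TTTCGCGC, TTTGCCGC and TTTGGCGC. These spellings were chosen after the windows had been looked at. A match was present in 2 windows, 1 of *Dnmt1* and 1 of *Uhrf1*, each window had a single match that overlapped no other, and both were TTTCGCGC. Over all 32526 such windows of the table, 1.88% held any of the 4 spellings and 0.258% held TTTCGCGC. The stretches are shown because they are the only motif matches among the members and belong to the maintenance pair, 5′ to 3′ on the strand of each gene, with the match in capitals (in *Dnmt1* as its reverse complement, GCGCGAAA):

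Dnmt1, chr9:20952824-20952853, minus strand: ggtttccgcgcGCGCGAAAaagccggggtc

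Uhrf1, chr17:56304117-56304146, plus strand: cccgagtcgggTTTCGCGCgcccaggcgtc

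The match in *Dnmt1* lay 212 to 219 bases before the start at 20952623, within the first exon of Dnmt1-201, which starts further upstream. The match in *Uhrf1* lay 178 to 185 bases before the start at 56304313. These matches are descriptions of the sequence, and binding of any factor was not measured. The windows with a match held 26 CpG in *Dnmt1* and 30 in *Uhrf1*, against a median of 6 over all windows. The other windows of these genes held fewer, 2 and 7 in *Dnmt1* and 10 in *Uhrf1*. The windows of the other members held 23 CpG in *Uhrf2*, 15 in *Tet1*, 51 in *Tet2*, 17 in *Tet3*, 19 in *Tdg*, 21 in *Dnmt3b* and 15, 38 and 40 in *Dnmt3a*. CpG methylation was not analysed here.

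The de novo methyltransferases differed in level far more than in ratio. *Dnmt3a*, on the plus strand at chr12:3806007-3914443, was at 22.70 FPKM in *Dnmt1*-WT and 18.21 FPKM in *Dnmt1*-KO. Its ratio was 0.802, within the limits for a call, and 25.2% of the genes counted had a lower ratio. *Dnmt3b*, on the plus strand at chr2:153649450-153687730, was at 0.70 FPKM in *Dnmt1*-WT and 0.69 FPKM in *Dnmt1*-KO, a ratio of 0.986 that passes 1 when the upper quartiles are set equal. *Dnmt3a* was thus the main methyltransferase transcript in both libraries, at 1.96 times the level of *Dnmt1* in *Dnmt1*-WT and 2.40 times in *Dnmt1*-KO. Its share of the summed DNMT transcripts was 64.9% in *Dnmt1*-WT and 68.8% in *Dnmt1*-KO, while that of *Dnmt1* was 33.1% and 28.6%. The sum itself was 34.98 FPKM in *Dnmt1*-WT and 26.48 FPKM in *Dnmt1*-KO, a ratio of 0.757.

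The DNMT family has further members outside the 9. *Dnmt3l*, a cofactor of de novo methylation in germ cells, was listed at 0 in both libraries. *Trdmt1*, which methylates transfer RNA, was at 2.07 FPKM in *Dnmt1*-WT and 2.49 FPKM in *Dnmt1*-KO. An antisense gene with exons that overlap *Dnmt3a*, *Dnmt3aos*, was listed at 0 in *Dnmt1*-WT and 0.08 FPKM in *Dnmt1*-KO.

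**Figure D3:**
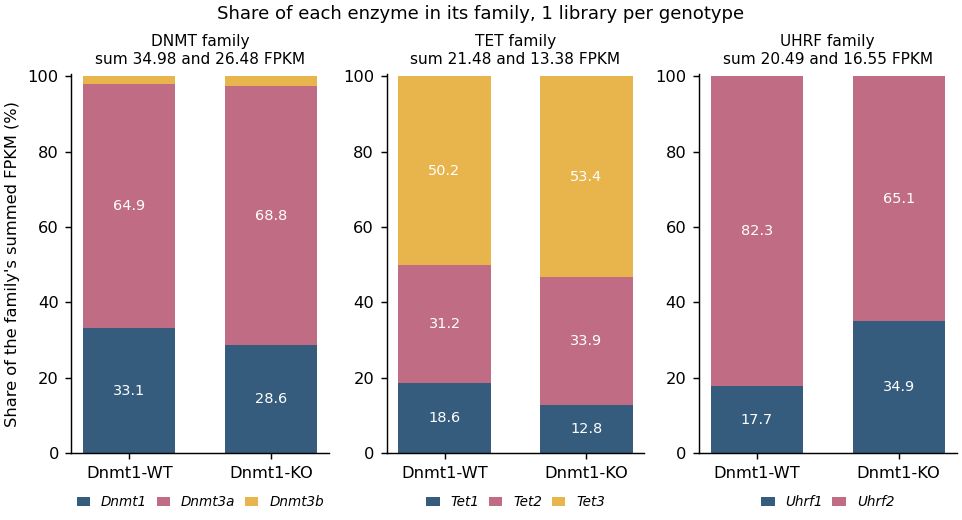
Share of each gene in the summed FPKM of its family (bars to 100%) in the *Dnmt1*-WT and *Dnmt1*-KO libraries, 1 library each. The share of *Uhrf1* among the UHRF transcripts goes from 17.7% to 34.9%, whereas *Dnmt3a* and *Tet3* keep the largest share of their families.

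All 3 TET genes had ratios below 1, which no scaling or pseudocount tried could have carried past 1. *Tet1*, on the minus strand at chr10:62804570-62908996, was at 4.0 FPKM in *Dnmt1*-WT and 1.71 FPKM in *Dnmt1*-KO. Its ratio of 0.427 was undercut by 2.01% of the genes counted. A pseudocount of 1 moved that ratio to 0.542.

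*Tet2*, on the minus strand at chr3:133463679-133545139, was at 6.70 FPKM in *Dnmt1*-WT and 4.53 FPKM in *Dnmt1*-KO, a ratio of 0.676. *Tet3*, on the minus strand at chr6:83362373-83459084, was at 10.78 FPKM in *Dnmt1*-WT and 7.14 FPKM in *Dnmt1*-KO, a ratio of 0.662. Of the genes counted, 11.7% had a ratio below that of *Tet2* and 10.7% one below that of *Tet3*. These ratios fall on either side of the limit of 0.667 with so small a distance between them that the difference in call carries no weight. *Tet3* and *Dnmt1* kept nearly the same proportion to each other, with 0.931 *Tet3* transcripts per *Dnmt1* transcript in *Dnmt1*-WT and 0.942 in *Dnmt1*-KO by FPKM. The ratios of *Uhrf2* (0.638) and *Tet2* (0.676) were also close to the 0.655 of *Dnmt1*, so this was not particular to *Tet3*.

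*Tet3* was the most abundant TET transcript, with 50.2% of the family's sum in *Dnmt1*-WT and 53.4% in *Dnmt1*-KO. *Tet1* made up 18.6% in *Dnmt1*-WT and 12.8% in *Dnmt1*-KO. The summed TET transcripts were at 21.48 FPKM in *Dnmt1*-WT and 13.38 FPKM in *Dnmt1*-KO, a ratio of 0.623, below the ratio of 0.757 for the DNMT sum. For each unit of DNMT transcripts there were 0.614 units of TET transcripts in *Dnmt1*-WT and 0.505 in *Dnmt1*-KO.

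*Tdg*, the glycosylase that acts after the TET enzymes, was at 18.82 FPKM in *Dnmt1*-WT and 21.86 FPKM in *Dnmt1*-KO. Its ratio was 1.16, and 68.3% of the genes counted had a lower one. Its level was 0.876 times the TET sum in *Dnmt1*-WT and 1.63 times in *Dnmt1*-KO. *Tdg* lies on the plus strand at chr10:82629828-82650799. It shares 98.7% identity or more over at least 1193 bases with the processed pseudogenes *Gm5597*, *Gm9855* and *Tdg-ps*, and its exons overlap those of *Glt8d2* on the opposite strand by 367 bases. *Glt8d2* was at 2.46 FPKM in *Dnmt1*-WT and 2.85 FPKM in *Dnmt1*-KO. The sources used here do not say whether counting used strand, so part of the *Tdg* level may belong to these genes.

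**Figure D4:**
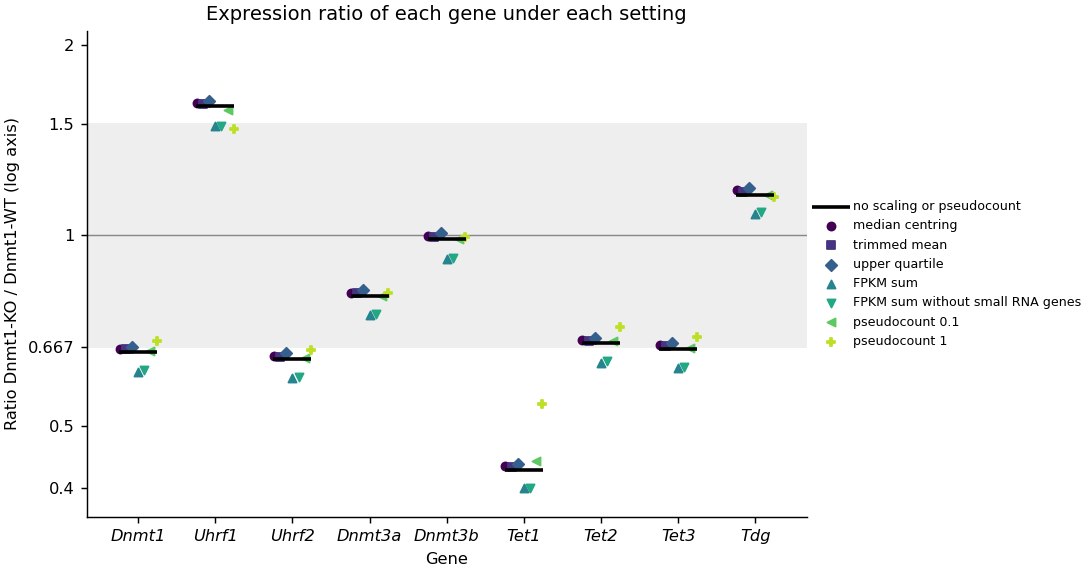
Ratio of *Dnmt1*-KO to *Dnmt1*-WT (log axis) for each gene without rescaling (black bars) and under 7 other settings (coloured symbols), with the range from 0.667 to 1.5 shaded. *Dnmt1*, *Tet2* and *Tet3* cross the lower limit in some settings and *Uhrf1* the upper, while *Tet1* and *Uhrf2* stay below the lower limit in all.

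The table also gives the number of transcript variants found per gene in each library, without naming them. *Dnmt1* had 3 variants in *Dnmt1*-WT and 5 in *Dnmt1*-KO, the largest gain of the 9 genes. *Tet2* had 5 variants in *Dnmt1*-WT and 3 in *Dnmt1*-KO, and *Tet3* had 3 and 2. *Dnmt3b* went from 3 to 4 variants and *Tdg* from 2 to 3, while *Uhrf1*, *Uhrf2*, *Dnmt3a* and *Tet1* had the same number in both libraries. More variants in *Dnmt1*-KO were therefore listed for 3 genes, fewer for 2 and as many for 4. Of the 13396 genes counted that were above 0 in both libraries, 13.0% had more, 14.4% fewer and 72.5% as many. That set leaves out *Dnmt3b* and includes genes with 1 variant in each library, such as *Pcna*. Each of the 9 had 2 or more, so the shares are not a like comparison.

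The wider pathway was examined through 75 genes chosen as partners of the 9. Of these, 73 were listed and 68 had a mean of at least 1 FPKM. Past 1.5-fold, 8 of the 68 were higher and 5 lower, or 11.8% and 7.35%, which lies near or below the shares of 15.3% and 11.1% over all genes. Their median log2 ratio was -0.08, and that of all genes was -0.02. The lists below are small, and the same shares of all genes apply beside the counts of each.

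In the list drawn up for partners of maintenance methylation, 2 of 7 genes were higher and 0 lower past 1.5-fold. Of all genes, 15.3% were higher and 11.1% lower. *Lig1*, the ligase that seals replicated DNA and binds UHRF1, was at 5.24 FPKM in *Dnmt1*-WT and 8.78 FPKM in *Dnmt1*-KO, a ratio of 1.68. *Cdca7l*, a relative of the cofactor of the remodeller HELLS, was at 1.13 and 1.89 FPKM, a ratio of 1.67. *Pcna*, the replication clamp that DNMT1 binds, was at 38.31 and 45.52 FPKM. *Dnmt1* thus went from 0.302 to 0.167 times the level of *Pcna*, and *Uhrf1* from 0.0945 to 0.127 times. The list also held *Paf1*, a subunit of an elongation complex rather than a maintenance partner, at 49.81 and 48.08 FPKM. It lay within the limits and is counted among the 7.

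In the list drawn up for readers of methylated CpG, 1 of 10 genes was higher and 1 lower past 1.5-fold. Whether each of the proteins binds methylated CpG was not examined here. *Mbd1*, which binds methylated CpG and represses transcription, was at 14.51 FPKM in *Dnmt1*-WT and 38.99 FPKM in *Dnmt1*-KO, a ratio of 2.69. *Mbd5*, of the same domain family, was at 7.64 and 4.6 FPKM, a ratio of 0.602. The most abundant genes of the list were close to level, *Mbd3* at 42.91 and 49.25 FPKM and *Mbd2* at 41.02 and 36.47 FPKM.

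Of 6 genes for CXXC proteins and the TET partner OGT, 0 were higher and 2 lower. *Ogt*, which binds TET proteins and adds sugar to proteins of the nucleus, was at 32.06 FPKM in *Dnmt1*-WT and 20.38 FPKM in *Dnmt1*-KO, a ratio of 0.636 next to the 0.623 of the TET sum. *Kdm2b*, which binds unmethylated CpG, was at 15.57 and 9.30 FPKM, a ratio of 0.597. *Cxxc1*, a further protein of that kind, was at 28.04 and 30.54 FPKM.

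TET enzymes use oxoglutarate, and 10 genes that make or consume it and related acids had a median log2 ratio of -0.27. *Idh1*, the isocitrate dehydrogenase of the cytosol, was at 18.24 FPKM in *Dnmt1*-WT and 27.39 FPKM in *Dnmt1*-KO, at the very limit for a call. The most abundant genes of the group, *Idh2* and *Sdha*, had ratios of 0.828 and 0.832.

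Of the 12 base excision repair genes counted, 0 were higher and 0 lower past 1.5-fold. *Parp1*, the sensor of strand breaks, was at 21.82 FPKM in *Dnmt1*-WT and 16.28 FPKM in *Dnmt1*-KO, and *Polb*, the repair polymerase, was at 15.89 and 18.19 FPKM. Cytidine deaminases and GADD45 genes, proposed as further routes to demethylation, showed 3 of 6 higher and 0 lower. Shares over all genes were 15.3% and 11.1%. *Apobec3* was at 1.74 FPKM in *Dnmt1*-WT and 6.57 FPKM in *Dnmt1*-KO, *Apobec1* at 1.72 and 3.41 FPKM, and *Gadd45g* at 34.77 and 79.68 FPKM. *Apobec3* acts on viral DNA and is expressed in leukocytes, *Apobec1* edits RNA and is expressed in enterocytes, and *Gadd45g* is a stress-induced gene. *Apobec2*, a muscle gene, was at 18.98 and 13.56 FPKM. The median log2 ratio of the list was 0.63, and 0.09 among its genes with a mean of at least 5 FPKM.

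Genes that supply the methyl donor, S-adenosylmethionine, showed 1 higher and 1 lower of 13 past 1.5-fold. *Mat2b*, the regulatory subunit of the synthase, was at 36.55 FPKM in *Dnmt1*-WT and 23.10 FPKM in *Dnmt1*-KO, a ratio of 0.632, while its catalytic subunit *Mat2a* was at 63.93 and 58.00 FPKM. *Shmt1*, a folate enzyme, was at 0.65 and 2.01 FPKM, a ratio of 3.09. *Ahcyl1*, a relative of the enzyme that clears the spent donor, was at 38.21 and 34.10 FPKM. Of 4 genes that keep imprints methylated or separate domains, 0 passed the limits in either direction, and *Trim28*, the corepressor, was at 54.13 and 50.99 FPKM and *Ctcf*, the insulator protein, at 19.30 and 13.45 FPKM.

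**Figure D5:**
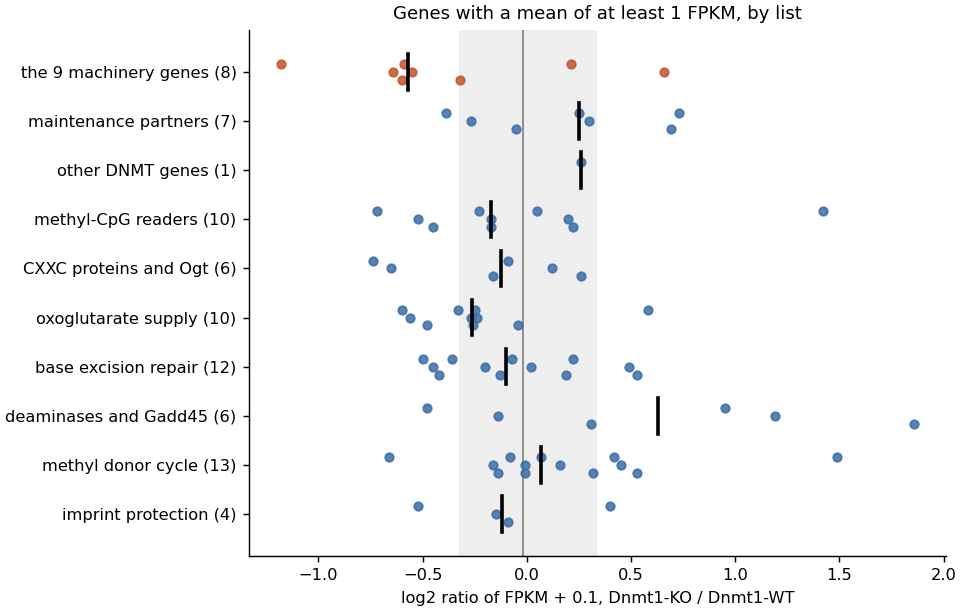
log2 ratio of FPKM + 0.1 for each gene with a mean of at least 1 FPKM, by list (number of genes in brackets), with the 8 counted machinery genes in red, list medians as black bars, and the median and the range between the quartiles of all genes as the grey line and band. The machinery median lies at -0.57, and those of 7 other lists with more than 1 gene between -0.27 and 0.25, apart from the deaminase and GADD45 list at 0.63, which comes to 0.09 at a mean of at least 5 FPKM.

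The muscle wall holds cells of several types, and the summed marker genes of several of them differed between the libraries, given here as *Dnmt1*-WT first and *Dnmt1*-KO second. Over all 13450 genes with a mean of at least 1 FPKM, 51.4% had a ratio below 1. Past 1.5-fold, 15.3% of them were higher and 11.1% lower. Smooth muscle genes had ratios below 1 for 10 of 10, of which 5 were past 1.5-fold, with sums of 19545 and 13370 FPKM, a ratio of 0.684 close to those of *Dnmt1*, *Uhrf2*, *Tet2* and *Tet3*. Leukocyte genes were higher past 1.5-fold for 8 of 8, with sums of 29.41 and 98.07 FPKM, macrophage genes for 10 of 10 listed, with sums of 147.19 and 514.7 FPKM, and endothelial genes for 8 of 8, with sums of 54.70 and 149.02 FPKM. Proliferation genes had ratios above 1 for 14 of 14, of which 9 were past 1.5-fold, with sums of 110.09 and 184.62 FPKM, a ratio of 1.68 beside the 1.60 of *Uhrf1*. None of the genes of these 5 lists was at 0 in either library. The lists differ in size and their sums are led by a few genes, such as *Ube2c*, which targets mitotic proteins for decay, at 15.43 and 39.66 FPKM, while the replication helicase subunit *Mcm7* was at 13.44 and 15.82 FPKM. Adipocyte genes were higher past 1.5-fold for 7 of the 7 counted, with sums over the list of 110.62 and 1208 FPKM, and *Lep*, not counted, was at 0 in *Dnmt1*-WT. *Fabp4* made up most of both sums, at 103.72 and 874.84 FPKM, and the median log2 ratio of the 7 was 5.62. Enterocyte genes had ratios above 1 for 7 of 8, with sums of 441.85 and 904.44 FPKM. Lymphocyte genes were low, with sums of 1.36 and 6.1 FPKM, and *Cd3e*, *Cd3d* and *Cd8a* were among those at 0 in *Dnmt1*-WT. Enteric neuron genes had sums of 437.33 and 504.55 FPKM, and 0 of 8 passed 1.5-fold. The ratio of the sums was 1.46 for enteric glia, 0.752 for interstitial cells and 1.55 for fibroblasts. Past 1.5-fold, 2 of 6 glia genes were higher and 0 lower, with a median log2 ratio of 0.13. Most of the difference in the glia sum came from *Gfap*, at 4.78 and 35.36 FPKM. Of 4 interstitial cell genes 0 were higher and 1 lower, and of 6 fibroblast genes 2 were higher and 0 lower. The part of cell composition in the ratios of the methylation genes was not tested.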

How the data were processed

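TruSeq libraries of total RNA were sequenced for the study, 1 library for each of 2 genotypes. The submitters' processing notes name TopHat 1.4.1, Cufflinks 2.0.2 and build mm10, without their roles. As processed by the authors, the deposited table holds FPKM per gene symbol, the number of transcript variants per library and a ratio of the genotypes, which was not used. FPKM summed to 429698 in *Dnmt1*-WT and 460845 in *Dnmt1*-KO, and since counts per gene are unknown, no interval was computed. Samples were grouped by the genotype label. Plain ratios were formed without rescaling, and list medians used a pseudocount of 0.1. Genes counted had a mean of at least 1 FPKM. Named genes were the members, list genes past 1.5-fold and the 2 most abundant of each list, and the marker lists are given by their sums. Some list genes are not reported here. The members, lists and limits were chosen with earlier results of these data known. Alternatives covered 5 scalings, pseudocounts, limits and filters, and the range from 2 to 30 FPKM was chosen after seeing the data. Scaling, and counting past a fold of 2 after median centring, were tested on simulated data with larger planted changes. Calls past 1.5-fold on plain ratios were not tested in this way. Positions came from GENCODE M21 (GRCm38), windows from RefSeq (GRCm38.p6) and copies from BLAST 2.17.0 (at least 95% identity over 200 bases). Python 3.11.15, numpy 2.4.6 and pandas 2.3.3 were used.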

Additional observations from a re-analysis of the deposited data

How the results depend on the processing

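No paired analysis was possible because each genotype has 1 library, and no library could be left out. No ratio past 1.5-fold changed direction under 7 settings (5 scalings and pseudocounts of 0.1 and 1). These settings could not have reversed such a ratio. The scaling factors lay between 0.980 and 1.07, and a pseudocount added to both libraries cannot carry a ratio across 1. Several ratios crossed a limit. For *Dnmt1* the ratio became 0.668 with upper quartiles set equal and 0.682 with a pseudocount of 1. For *Uhrf1* it became 1.49 when divided by the FPKM sum, with or without small RNA genes, and 1.47 with a pseudocount of 1. For *Tet2* it became 0.630 with the FPKM sum and 0.633 without small RNA genes. For *Tet3* it became 0.671 with median centring, 0.669 with a trimmed mean, 0.676 with upper quartiles and 0.691 with a pseudocount of 1. *Dnmt3b* reached 1.01 with upper quartiles. The number of members higher past the limit became 0 with either FPKM sum, a fold of 2 or a mean of at least 5 FPKM, the last because *Uhrf1* is then left out. The number lower became 2 with upper quartiles and 1 with a fold of 2. The deaminase and GADD45 median went from 0.63 to 0.09 at a mean of at least 5 FPKM. The methyl donor median became -0.03 with either FPKM sum, and the full FPKM sum shifted every log2 ratio by -0.101. The other DNMT genes have no value at a mean of at least 5 FPKM, nor do the places of *Uhrf1* and *Tet1* among all genes. The cause of the other changes was not tested. Depth per gene is unknown, and values near 0.03 FPKM carry little weight.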
